A study of Mus musculus with 2 samples.

Results

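The genes described here are 39 genes known to be switched on by type I interferon. They were chosen by symbol and not by a threshold on their values, but with earlier results of these data known. Of the 39, 38 were found among the 31053 genes of the count matrices, and Mx2 was not analysed here. They were measured by droplet single-cell RNA sequencing of the 3' end in monocytes and macrophages taken from skin wounds of mice on day 6 after injury. The non-diabetic group and the diabetic group each had 1 library, made from fresh cells of enzymatically digested wounds pooled from 2 mice. The labels give no strain name, genotype, age or treatment and speak of mice of each strain, so strain and diabetes cannot be told apart. With 1 library per group there is no replicate check and no test of any difference below, and every interval is a 95% interval that covers counting error only.

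Type I interferons are secreted proteins, the beta form and the many alpha forms, that cells release after sensing foreign or misplaced nucleic acid. They bind the IFNAR1/IFNAR2 receptor, the kinases JAK1 and TYK2 become active, and a complex that contains STAT2 and IRF9 forms and binds interferon-stimulated response elements in the promoters of many genes. The products of those genes block viral replication, sense RNA and DNA, and feed back on the pathway, and monocytes and macrophages are among the cells that respond to it.

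Cells with at least 500 detected genes and under 10% mitochondrial UMIs (unique molecular identifiers, each standing for 1 captured transcript) were kept, 1123 non-diabetic and 1755 diabetic. They held 15429273 and 30435047 UMIs, with medians of 14079 and 16314 UMIs per cell. The libraries shared 6 barcodes, and 1 of these was a kept cell in both. Of the cell type marker lists, those of monocytes and macrophages had the highest summed levels in both libraries. Monocyte markers stood at 11799 counts per 1000000 UMIs (CPM) in the non-diabetic and 8282 CPM in the diabetic library, and macrophage markers at 5273 and 10645 CPM. The neutrophil list, which includes genes that activated macrophages also express, was at 288 and 5122 CPM, the fibroblast list at 238 and 18.0 CPM, and the T cell list at 0.583 and 2.27 CPM. Plasmacytoid dendritic cell markers, of which 1 of 7 was at 0 in both libraries, were at 155 and 133 CPM. Among the cell states described below, 1 of these 7 markers, Runx2, was raised in the Inhba-led state, and none was raised in any other. Genes of cell handling and early stress were at 18352 and 14473 CPM. The part of these differences in the results below was not tested.

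The interferon-induced genes were lower in the diabetic library almost without exception. Together they took 52199 of the non-diabetic UMIs, or 3383 CPM, and 31040 of the diabetic UMIs, or 1020 CPM, which is 3.32-fold lower. Of the 38 genes, all of which had at least 20 UMIs over both libraries, 37 were lower in the diabetic library by a factor of 1.5 or more and 0 were higher by that factor. Among all 12337 genes with that many UMIs, 12.9% were 1.5 times lower and 18.7% were 1.5 times higher. At a fold of 2, 31 of the 38 were lower, against 6.54% of all genes lower and 8.56% higher. The median log2 ratio (diabetic over non-diabetic, with 0.5 added to each sum) was -1.70 over the 38 genes and 0.12 over all genes. The counting interval lay below 0 for 37 genes. The exception was Ifi44, which had 10 UMIs in each library, and the gene that missed the fold of 1.5 was Gbp7.

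**Figure D1:**
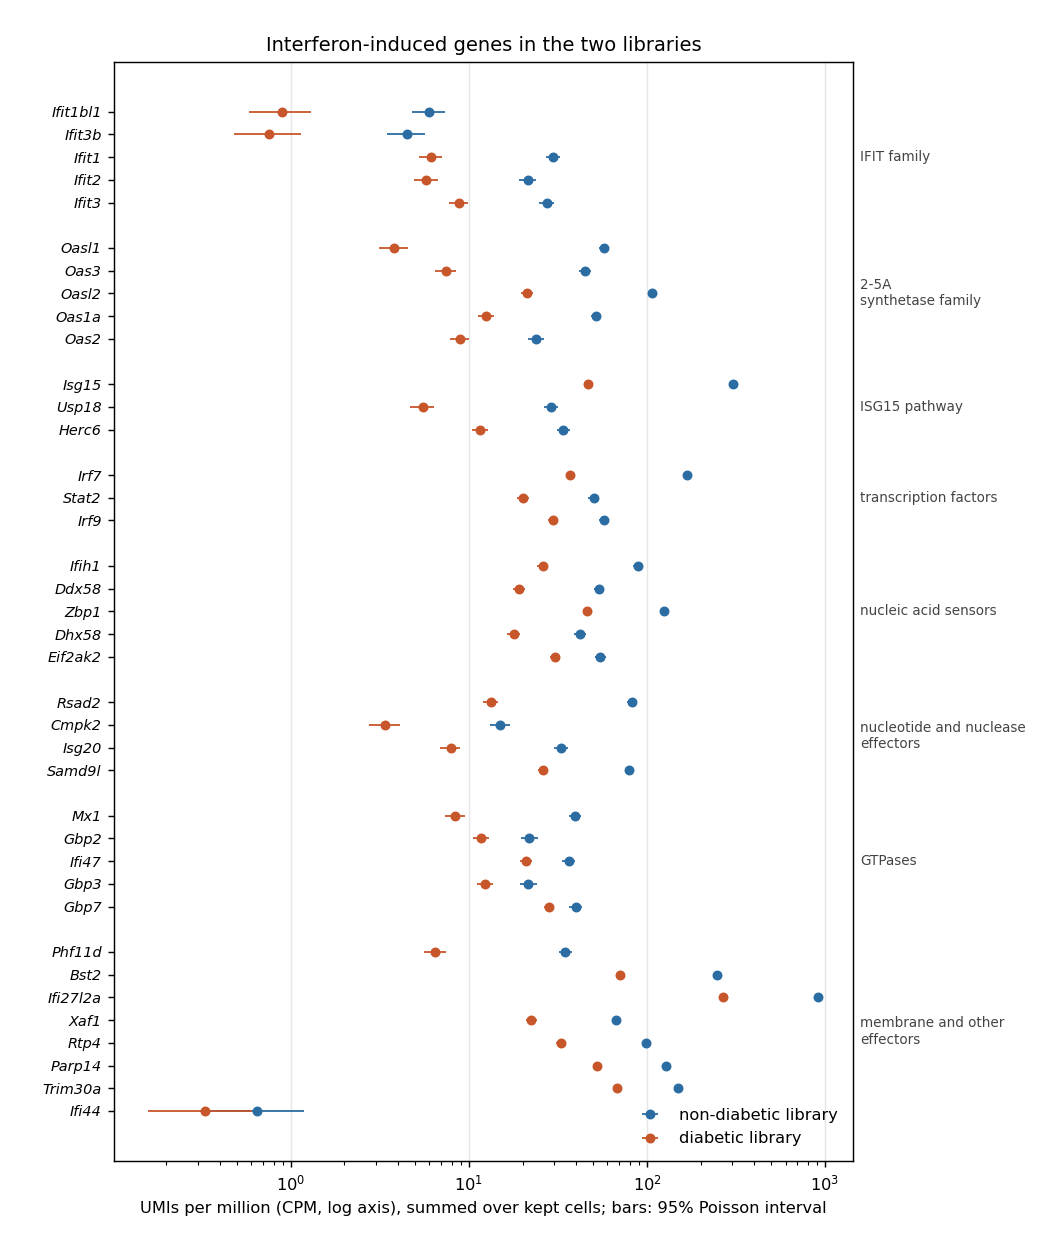
Level of each of the 38 interferon-induced genes in CPM (log axis) summed over the kept cells of each library, grouped by role, with 95% exact Poisson intervals. The diabetic point lies to the left of the non-diabetic point for each gene, and the intervals of the 2 libraries meet for Ifi44.

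The IFIT family encodes proteins that bind foreign RNA and block its translation, and its genes sit side by side on chromosome 19, from Ifit2 (start 34550694) to Ifit1 (end 34650009, mm10). All 5 were lower in the diabetic library, by 3.12-fold to 6.63-fold. Ifit1 had 458 non-diabetic and 186 diabetic UMIs, or 29.7 and 6.11 CPM, a log2 ratio of -2.28 (-2.53 to -2.03). Ifit2 was at 21.4 and 5.75 CPM and Ifit3 at 27.4 and 8.77 CPM. Ifit3b and Ifit1bl1 were sparse, at 4.47 and 0.756 CPM and at 5.96 and 0.887 CPM. The transcripts of Ifit3 and Ifit3b are 97.8% identical over 1700 bases, so how the deposited counts split between them is uncertain.

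Isg15, which encodes a ubiquitin-like protein that is attached to other proteins and also secreted, was at 302 CPM (4667 UMIs) in the non-diabetic and 46.8 CPM (1425 UMIs) in the diabetic library, 6.46-fold lower (6.09 to 6.86). Usp18, the protease that removes ISG15 and also dampens receptor signalling, was at 28.9 and 5.49 CPM. Herc6, the mouse ligase that attaches ISG15, was at 33.9 and 11.5 CPM. All 3 genes of this system were thus lower, with Herc6 the least changed at 2.94-fold. Part of the transcript of each of Isg15, Herc6, Gbp7, Rtp4 and Samd9l also matches a gene model that the matrices do not list, so their counts carry that uncertainty.

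The 2'-5' oligoadenylate synthetase family makes the short oligonucleotides that activate RNase L, which cuts RNA. Oas1a, Oas2 and Oas3 lie together on chromosome 5 (120730333 to 120907521), apart from the synthetase-like genes Oasl1 and Oasl2 (114896936 to 114937915). Oasl1, which is known to restrain translation of Irf7, had the lowest ratio of all 38 genes. It had 883 UMIs (57.2 CPM) in the non-diabetic and 115 (3.78 CPM) in the diabetic library, 15.1-fold lower (12.5 to 18.6). Oasl2 was at 106 and 21.2 CPM, Oas3 at 45.0 and 7.43 CPM and Oas2 at 23.8 and 8.87 CPM. Oas1a, at 51.7 and 12.5 CPM, is 97.6% identical to Oas1g over 1861 bases and is uncertain for that reason. Each of the 5 genes was lower, Oas2 by the smallest factor, 2.68-fold.

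Since these genes moved together, their promoters were searched for the core of the interferon-stimulated response element, which is GAAA, any 2 bases and GAAA, or on the other strand TTTC, any 2 bases and TTTC, with overlapping matches counted. RefSeq windows from 250 bases before to 50 bases after the transcription start were at hand for 30 of the 39 genes. The core was in the windows of 17 of the 30 (56.7%) and of 1079 of 27025 genes in all (3.99%). The shorter interferon-gamma activated site, TTCNNNGAA, which reads the same on both strands, was in 6 of the 30 (20%) and in 9.55% of all genes. A match is a run of letters and not a measured binding site. The stretches below are shown because they hold the core in genes of different roles and ratios. They are from GRCm38.p6, read 5' to 3' along each gene, with the matches in capitals.
Isg15: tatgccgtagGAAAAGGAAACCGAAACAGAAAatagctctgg
Ifit1: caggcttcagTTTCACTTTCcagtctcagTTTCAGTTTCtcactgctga
Ifit3: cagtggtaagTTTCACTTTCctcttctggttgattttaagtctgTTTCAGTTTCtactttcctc
Ifit3b: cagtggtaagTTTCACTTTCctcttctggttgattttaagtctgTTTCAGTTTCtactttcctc
Oas1a: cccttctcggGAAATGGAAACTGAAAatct
Rsad2: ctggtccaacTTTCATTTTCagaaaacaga
Bst2: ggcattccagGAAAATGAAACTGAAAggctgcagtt
Gbp3: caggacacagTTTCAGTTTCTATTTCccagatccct
Gbp7: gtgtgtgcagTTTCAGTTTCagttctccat

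The Isg15 stretch lies at chr4:156200865-156200906 on the minus strand and holds 3 overlapping matches. The Ifit1 stretch lies at chr19:34640775-34640823 and the Ifit3 stretch at chr19:34583363-34583426, both on the plus strand and each with 2 separate matches. The Ifit3b stretch, at chr19:34607759-34607822, is the same 64 bases as that of Ifit3 and sits 32 bases farther from its own start. With that shift, 201 of 268 bases of the 2 windows were the same. The Oas1a stretch (chr5:120907526-120907555), the Rsad2 stretch (chr12:26456553-26456582) and the Bst2 stretch (chr8:71537577-71537612) are on the minus strand. Those of Gbp3 (chr3:142559989-142560024) and Gbp7 (chr3:142530273-142530302) are on the plus strand. Holding the core did not go with a lower ratio. The median log2 ratio was -1.77 over the 17 genes with a match and -1.89 over the 13 without one, among them Oasl1, and Gbp7 had a match.

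The 3 transcription factors of the pathway had a median log2 ratio of -1.32. Irf7, which drives the alpha interferon genes and is itself induced, was at 169 CPM (2602 UMIs) and 37.1 CPM (1129 UMIs), 4.54-fold lower. Stat2 was at 50.1 and 20.1 CPM, a log2 ratio of -1.32 (-1.47 to -1.16). Irf9, the DNA-binding partner of STAT2, was at 57.6 and 29.8 CPM, -0.95 (-1.08 to -0.81).

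Among sensors of nucleic acid, Ifih1 (MDA5) was at 88.5 and 25.9 CPM, Ddx58 (RIG-I) at 53.7 and 19.2 CPM and Dhx58 (LGP2) at 42.0 and 17.8 CPM. Zbp1, a sensor of left-handed nucleic acid that can start cell death, was at 125 and 46.2 CPM. Eif2ak2, the kinase PKR that stops translation on sensing double-stranded RNA, was at 54.8 and 30.6 CPM and was the closest of the 5 between the libraries, at 1.79-fold lower. The median log2 ratio of the sensors was -1.44.

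The effectors that act on nucleotides and RNA had lower ratios. Rsad2 (viperin), which makes a chain-terminating nucleotide, was at 82.1 and 13.3 CPM, 6.18-fold lower (5.53 to 6.94). Its neighbour Cmpk2, a mitochondrial nucleotide kinase that supplies the substrate of viperin, was at 14.97 and 3.38 CPM. The exonuclease gene Isg20 was at 32.8 and 7.89 CPM and Samd9l at 79.1 and 26.1 CPM. All 4 were lower by at least the fold of 2.

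The GTPases were divided. Mx1, which traps viral nucleoproteins, was at 39.6 and 8.38 CPM, 4.72-fold lower (4.08 to 5.49). The guanylate-binding and immunity-related GTPases, which attack the vacuoles of microbes and are also known targets of interferon-gamma, had the highest ratios of the 38 genes apart from Eif2ak2. Gbp2 was at 21.8 and 11.7 CPM (-0.91, -1.12 to -0.69), Gbp3 at 21.5 and 12.4 CPM (-0.80, -1.02 to -0.58) and Ifi47 at 36.3 and 20.8 CPM (-0.80, -0.97 to -0.63). Gbp7 was at 39.8 and 28.2 CPM, with a log2 ratio of -0.50 (-0.65 to -0.35).

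Of the remaining genes, Ifi27l2a, which encodes a small hydrophobic protein, took the most UMIs, with 26.96% of all UMIs of the 38 genes in the non-diabetic and 26.3% in the diabetic library. It was at 912 and 268 CPM, 3.40-fold lower, and without it the other 37 genes were 3.29-fold lower in sum. Bst2 (tetherin), which holds budding virus at the cell surface, was at 246 and 70.4 CPM. Trim30a, a brake on inflammatory signalling, was at 150 and 67.5 CPM, and Parp14, an ADP-ribosyl transferase, at 127 and 52.7 CPM. Rtp4 was at 98.2 and 33.0 CPM and the apoptosis-associated gene Xaf1 at 67.4 and 22.4 CPM. Phf11d, at 34.8 and 6.44 CPM, shares 98.1% of 322 bases with Phf11a and is uncertain. Ifi44, at 0.648 and 0.329 CPM, was too sparse for its counting interval (-2.40 to 0.44) to give a direction.

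The next question was how the 38 genes were spread over single cells. Each cell with at least 5000 UMIs was thinned to that depth, which left out 141 non-diabetic and 94 diabetic cells, and its UMIs from the 38 genes were summed. Among 982 non-diabetic cells the 10th percentile was 2 UMIs, the median 11, the 90th percentile 41.9 and the highest 152. Among 1661 diabetic cells these were 0, 3, 13 and 136 UMIs. The highest single cells were thus close, while the middle of the range and its upper end (99th percentile 88.8 and 42 UMIs) were lower in the diabetic library. No UMI of the 38 genes was found in 20 non-diabetic cells (2.04%) and 200 diabetic cells (12.04%). The variance of the sum was 21.8 times its mean in the non-diabetic library and 13.8 times in the diabetic library. This ratio depends on the mean, which was 17.6 and 5.60 UMIs, so it does not rank the libraries by unevenness. The 10% of cells with the highest sums held 36.4% of these UMIs in the non-diabetic and 44.9% in the diabetic library.

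A cell was counted as responding when at least 8 of the genes had a UMI in it at that depth. By this rule 385 of 982 non-diabetic cells responded, 39.2% (36.1% to 42.3%, Clopper-Pearson), and 147 of 1661 diabetic cells, 8.85% (7.53% to 10.3%). The class is a range on a scale and not a cell type, since cells lay on both sides of the limit with no gap near it. Just under the limit, with 7 genes, lay 67 non-diabetic and 55 diabetic cells, and exactly at it 44 and 31. At 20 genes or more there were 60 and 12 cells, and the highest number was 34 in each library. Without thinning, 66.9% and 36.0% of kept cells had 8 of the genes or more. Responding cells held 74.8% of the UMIs of these genes in the non-diabetic library and 39.5% in the diabetic library. They were not deeper than the rest, with medians of 14496 against 15253 UMIs in the non-diabetic library and 16235 against 16746.5 in the diabetic library. Their median mitochondrial share was 3.51% against 3.29% and 3.98% against 3.80%. With responding cells and cells under 5000 UMIs left out, a choice of cells made by the genes themselves, the median log2 ratio was -1.002.

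**Figure D2:**
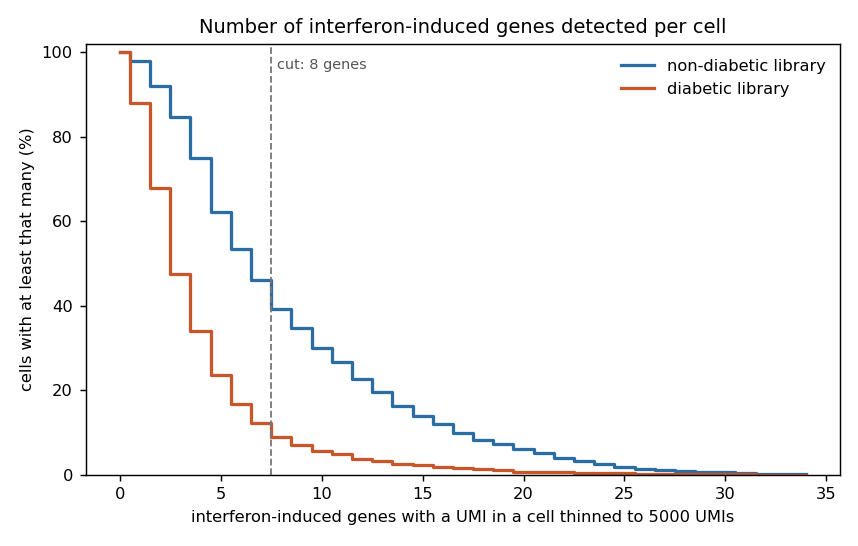
Share of cells (vertical axis, percent) in which at least a given number of the 38 interferon-induced genes had a UMI (horizontal axis), with each cell thinned to 5000 UMIs. The non-diabetic curve lies above the diabetic curve up to the far end, and at the dashed line at 8 genes the shares are 39.2% and 8.85%.

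The genes differed in how far their UMIs were gathered into few cells. For each gene, cells were ranked by the thinned UMIs of the other 37 genes, and the share of the gene's own UMIs in the top 10% of cells was taken. Its median was 38.4% over the 36 genes with 20 or more thinned UMIs in the non-diabetic library and 43.7% over 35 in the diabetic library, against 9.502% and 9.73% for all other genes. The IFIT genes were the most gathered. The top cells held 88.8% of Ifit2 UMIs, 75.1% of Ifit3 and 58.8% of Ifit1 in the non-diabetic library, and 95.3%, 94.3% and 88.5% in the diabetic library. Mx1 had 49.98% of its UMIs there in the non-diabetic and 83.3% in the diabetic library. Irf9 had the lowest share in both libraries, with 14.4% and 19.6%, and Ifi27l2a had 18.1% and 30.6%. A UMI of Ifi27l2a was in 67.1% of thinned non-diabetic and 38.7% of thinned diabetic cells (72.0% and 52.3% unthinned), and one of Ifit2 in 3.97% and 1.26% (8.01% and 2.39% unthinned). No cell type here is known to lack these genes, so a background of free RNA in droplets was not measured for them.

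**Figure D3:**
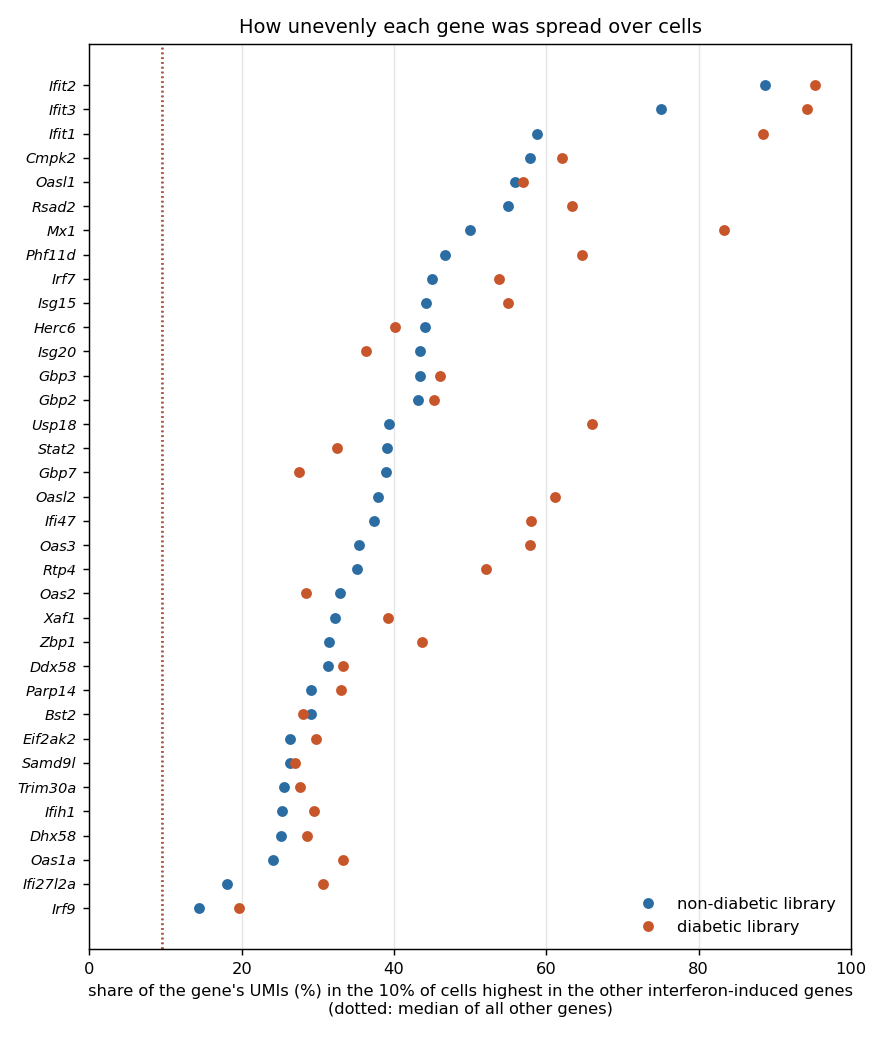
For each gene, the percentage of its UMIs found in the 10% of cells highest in the other interferon-induced genes, by library. The dotted lines mark the medians of all other genes, 9.502% and 9.73%, and each plotted gene lies to their right, Irf9 nearest and Ifit2 farthest.

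To set the genes beside cell state, cells of both libraries were clustered together without the listed genes and without other interferon-induced genes, which gave 16 states named here by a leading gene. Most states came almost wholly from 1 library. The Chil3-led state (324 non-diabetic, 6 diabetic cells), with 4 of 10 monocyte markers raised, and the Inhba-led state (288 and 5) were non-diabetic. The vessel-associated genes Plvap and Col4a1 were among the leading genes of the Inhba-led state. Of the marker lists, however, it had 1 of 5 endothelial and 2 of 10 monocyte markers raised, and it stayed unnamed. The Stfa3-led state (1 and 314), with Lcn2 and S100a8, and the Nrg1-led (8 and 307), Ighm-led (11 and 222), Hspa1b-led (9 and 153), Col1a1- and Cd163-led (11 and 148), Ctsk-led (16 and 142) and Tppp3-led (6 and 109) states were diabetic. The Col1a1-led state had 9 of 15 macrophage and 0 of 6 fibroblast markers raised, though 3 fibroblast markers were among its 10 leading genes. The Ctsk-led state had 4 of 6 cycling markers raised. A state that comes from 1 library may stand for that library, so its difference from the rest cannot be told apart from the library. Only 3 states had at least 30 cells of each: a Cd177-led monocyte-like state (167 and 125), a Cd209a-led dendritic cell-like state (119 and 74) and an unnamed Lpl- and Ccl24-led state (97 and 48).

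The Chil3-led state had the highest levels in the non-diabetic library among states of 30 cells or more. Its sum over the 38 genes was 4699 CPM, against 2979 CPM in the Inhba-led, 2980 in the Cd177-led, 2581 in the Cd209a-led and 2470 in the Lpl-led state. Against all other non-diabetic cells, 28 of 37 measured genes were at least 1.5 times higher in it, where 5.96% of all genes were. Oasl1, Isg15, Rsad2, Irf7 and Oasl2 were among its 10 leading genes by fold, although they had no part in the clustering. That rank was taken against all other kept cells of both libraries, so the difference between the libraries enters it. Isg15 was at 454 CPM there and at 377 in Inhba-led, 196 in Cd209a-led, 167 in Lpl-led and 154 CPM in Cd177-led cells. Rsad2 split the states more sharply, at 130 CPM in Chil3-led and 139 in Inhba-led cells against 58.9 in Lpl-led, 17.7 in Cd177-led and 14.95 CPM in Cd209a-led cells. Oasl1 ranged from 108 CPM in Chil3-led to 14.5 CPM in Cd209a-led cells. Ifi47 went the other way, with 76.7 CPM in Cd177-led and 36.6 CPM in Chil3-led cells. Of Chil3-led cells 144 of 289 responded, 49.8% (43.9% to 55.7%), and of Inhba-led cells 91 of 248, 36.7% (30.7% to 43.0%).

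In the diabetic library the Cd177-led and Ighm-led states were highest and the Stfa3-led state lowest among states of 30 cells or more. The Cd177-led state stood at 2128 CPM over the 38 genes, with 26 of 37 genes at least 1.5 times higher than in other diabetic cells (13.6% of all genes). The Ighm-led state stood at 1774 CPM, with 31 of 37 higher (16.6% of all genes). It stayed unnamed, with 5 of 15 macrophage and 2 of 5 B cell markers raised, and Cx3cr1 and C1qb were among its leading genes. The Hspa1b-led state (1519 CPM) had 21 of 37 higher (11.9% of all genes) and the Cd209a-led state (1454 CPM) 23 of 37 (17.7% of all genes). Per thinned cell, however, the Cd209a-led state had a median of 3 UMIs and a 90th percentile of 13.2, against 3 and 13 over all diabetic cells. Its highest cell had 136 UMIs, the highest value of the diabetic library, so its summed level leans on few cells. The Stfa3-led state, 17.9% of kept diabetic cells, stood at 371 CPM with 35 of 37 genes at least 1.5 times lower. That share has to be read against the 38.8% of all genes that were lower in those cells. The Col1a1-led (547 CPM), Ctsk-led (665 CPM) and Tppp3-led (672 CPM) states had 25, 25 and 23 of 37 lower, against 17.8%, 18.1% and 20.8% of all genes. Ifi27l2a spanned 57.2 CPM in Stfa3-led to 695 CPM in Cd177-led diabetic cells, and Isg15 ran from 14.7 CPM in Col1a1-led to 117 CPM in Cd209a-led cells. In the Cd209a-led state, 1 diabetic cell held 46 of the 153 Isg15 UMIs.

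Responding shares in the diabetic library were highest in the same pair of states. They were 27.6% in the Cd177-led state (32 of 116), 16.7% in the Ighm-led (35 of 209), 12.3% in the macrophage-like Gas6-led (7 of 57), 11.8% in the Hspa1b-led (17 of 144) and 8.67% in the Nrg1-led state (26 of 300). They were 3.65% in the Ctsk-led (5 of 137), 2.35% in the Stfa3-led (7 of 298), 2.04% in the Col1a1-led (3 of 147) and 0.971% in the Tppp3-led state (1 of 103). The intervals of the last 4 overlap, so their order is not resolved. Handling genes were at 28340 CPM in Hspa1b-led, 7055 in Ighm-led and 12569 CPM in Stfa3-led diabetic cells. The median mitochondrial share was 4.47% in Ighm-led and 3.27% in Stfa3-led cells.

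**Figure D4:**
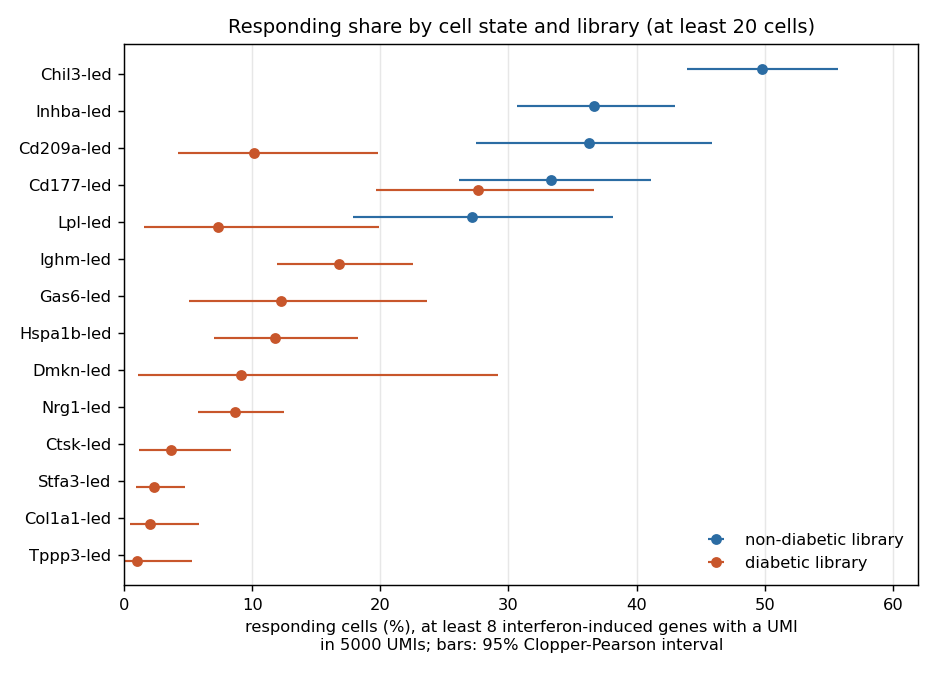
Share of responding cells (at least 8 interferon-induced genes with a UMI in 5000 UMIs) by cell state and library, for states with at least 20 thinned cells of that library, with 95% Clopper-Pearson intervals. Each non-diabetic point lies above 27%, and the Cd177-led state is the diabetic state nearest to them at 27.6%.

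The 3 states with cells of both libraries allow the closest comparison. In the Cd177-led monocyte-like state, 54 of 162 non-diabetic and 32 of 116 diabetic cells responded, 33.3% (26.1% to 41.2%) and 27.6% (19.7% to 36.7%), so the intervals overlap. In the Cd209a-led state 41 of 113 and 7 of 69 responded, 36.3% (27.4% to 45.9%) and 10.1% (4.18% to 19.8%), and these intervals do not overlap. In the Lpl-led state 22 of 81 and 3 of 41 responded, 27.2% (17.9% to 38.2%) and 7.32% (1.54% to 19.9%), and these intervals overlap slightly. The sum of the 38 genes was lower in diabetic cells of each state, from 2980 to 2128 CPM in Cd177-led, from 2581 to 1454 CPM in Cd209a-led and from 2470 to 1026 CPM in Lpl-led cells. In all 12 states that held 5 or more cells from both libraries, the sum was higher in the non-diabetic cells, though most of these rest on few cells of 1 library.

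The median difference inside each of these states was smaller than over all cells, though single genes could differ more. In the Cd177-led state 17 of 36 measured genes were at least 1.5 times lower in diabetic cells and 1 was higher, where 13.2% and 10.3% of all genes were, and the median log2 ratio was -0.57. In the Cd209a-led state 17 of 34 were lower and 3 higher, where 13.7% and 10.6% of all genes were, with a median of -0.57. In the Lpl-led state 27 of 34 were lower and 0 higher, where 17.4% and 13.7% of all genes were, with a median of -1.32. When interferon genes were kept in the clustering, the Cd177-led state held 140 non-diabetic and 132 diabetic cells and its direction turned, with 2 of 29 genes lower, 3 higher and a median of 0.11. At a clustering resolution of 1.5 that state had 8 of 31 genes lower, 2 higher and a median of -0.14. Pooled over the 3 states, the median was -0.71, against -1.70 over all cells. Handling genes differed between the libraries in the Cd177-led (18277 and 10681 CPM) and Lpl-led states (20101 and 13269 CPM) and were close in the Cd209a-led state (17869 and 18049 CPM). Their part in the result was not tested.

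In monocyte-like Cd177-led cells the lowest ratios belonged to Oasl1 and Ifit1. Ifit1 had 71 UMIs in 18 non-diabetic cells and 3 UMIs in 3 diabetic cells, a log2 ratio of -3.84 (-6.36 to -2.44). Oasl1 had 51 and 2 UMIs, -3.85 (-7.24 to -2.23). Isg15 was at 154 and 62.5 CPM, -1.29 (-1.62 to -0.99). Several genes were nearly level, with Zbp1 at 139 and 151 CPM, Irf9 at 61.4 and 59.7, Parp14 at 80.7 and 80.3 and Eif2ak2 at 54.2 and 56.2 CPM. Gbp2 was higher in the diabetic cells, at 44.2 CPM (77 UMIs in 42 cells) against 20.5 CPM (51 UMIs in 30 cells), 1.10 (0.58 to 1.65).

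In dendritic cell-like Cd209a-led cells Usp18 (31.6 and 7.67 CPM), Phf11d (49.1 and 15.3 CPM) and Bst2 (282 and 119 CPM) were lower in the diabetic library. The genes higher there were Gbp2 (1.03, 0.13 to 1.95), Gbp3 (1.82, 0.94 to 2.81) and Ifit3 (1.46, 0.69 to 2.27). Gbp2 had 21 UMIs in 11 of 119 non-diabetic cells and 24 UMIs in 7 of 74 diabetic cells, 10 of them in 1 cell. Gbp3 had 16 UMIs in 14 non-diabetic cells and 32 UMIs in 15 diabetic cells. The 37 diabetic Ifit3 UMIs came from 5 cells, 20 of them from 1 cell, while the 24 non-diabetic UMIs came from 12 cells. The counting interval treats those UMIs as independent and leaves this clumping out.

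In Lpl-led cells, which also had the fatty acid transporter gene Cd36 among their leading genes, Ifih1 was at 124 and 22.8 CPM, -2.40 (-3.22 to -1.73). Bst2 was at 235 and 98.9 CPM and Ifi27l2a at 664 and 268 CPM. Ifit2 had 24 UMIs in 4 non-diabetic cells, 17 of them in 1 cell, and 0 in the diabetic cells. Ifit3 was nearly level, with 20.6 and 19.0 CPM from 10 and 4 cells.

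**Figure D5:**
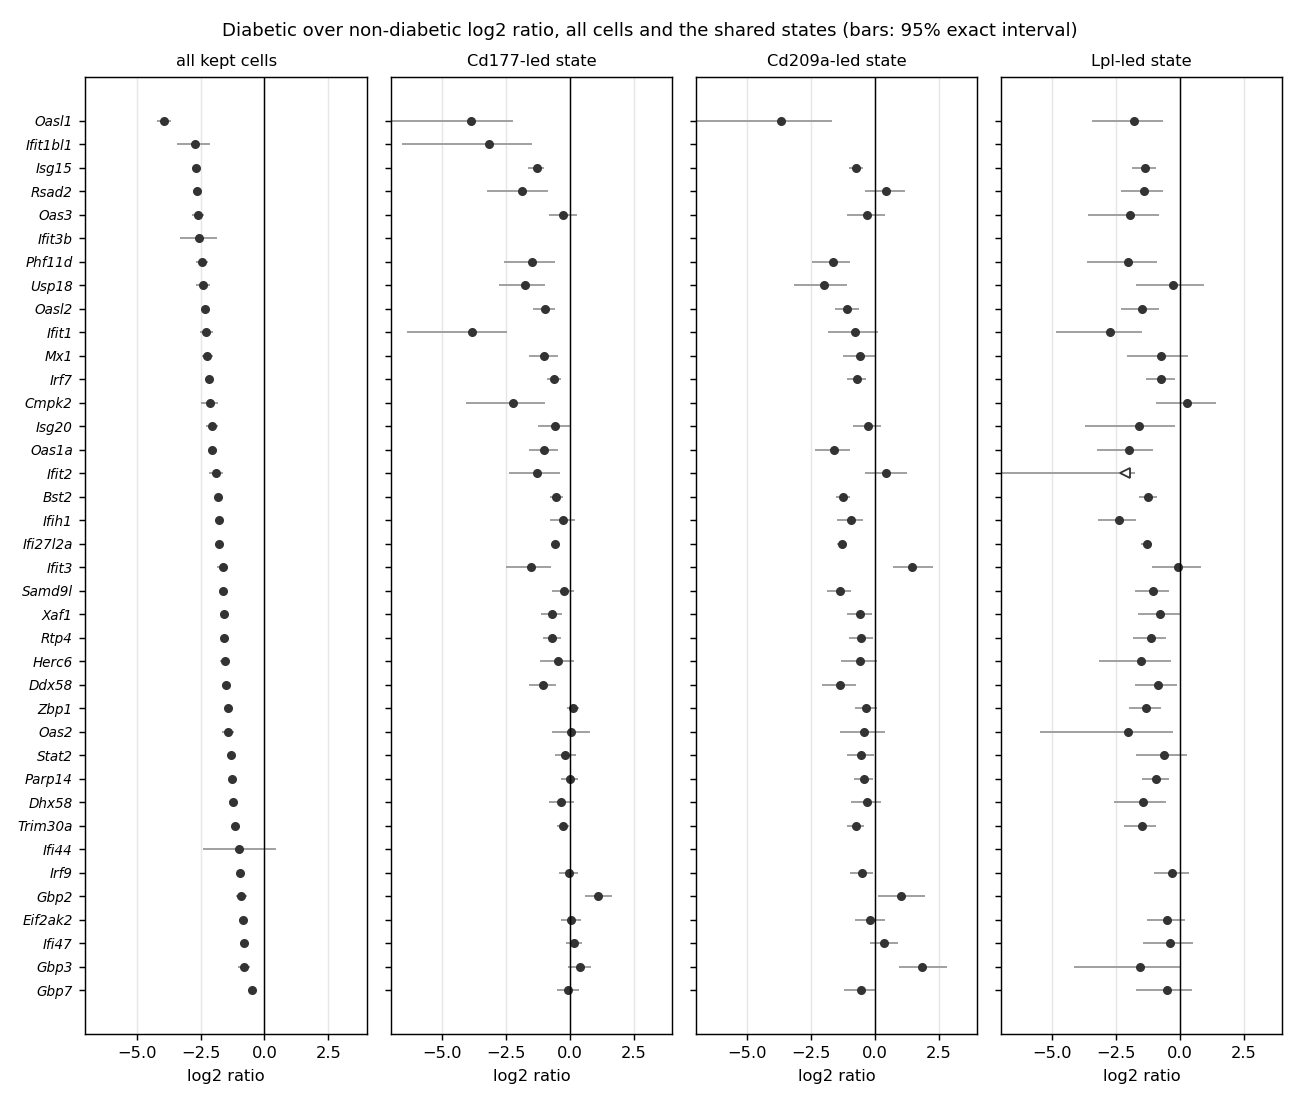
Diabetic over non-diabetic log2 ratio of each gene over all kept cells and within the 3 states shared by both libraries, with 95% exact conditional intervals (bars that reach the left edge run past it). Genes under 20 UMIs in a panel are not drawn, and the open triangle marks Ifit2 in Lpl-led cells, where the diabetic sum was 0 and a floor of 3 counts was plotted in its place. The points move toward 0 from the first panel to the Cd177-led and Cd209a-led panels, where Gbp2 lies to the right of 0.

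Most other genes of the pathway differed by less than 1.5-fold, though their median lay below that of all genes. Of 62 listed ligands, receptors, kinases, inducers, inhibitors and interferon-gamma targets, 46 had at least 20 UMIs. Of these, 10 were at least 1.5 times lower and 2 at least 1.5 times higher, to be read against the 12.9% and 18.7% of all genes. The other 34 lay between, and the median log2 ratio of the 46 was -0.18, against 0.12 over all genes. Of 5 measured receptors 0 were lower and 1 was higher. Ifnar1 was at 77.7 CPM in the non-diabetic and 119 CPM in the diabetic library (0.61, 0.52 to 0.71), and Ifnar2 was at 180 and 186 CPM. Ifngr1 was at 340 and 258 CPM. Of 10 kinases and factors 2 were lower, among them Tyk2 at 25.1 and 16.2 CPM, while Jak1 was at 164 and 180 CPM.

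Among 14 genes that induce interferon, 3 were lower. The DNA sensor gene Mb21d1 (cGAS) was at 22.2 and 10.5 CPM (-1.07, -1.30 to -0.85), its partner Tmem173 (STING) at 56.1 and 33.3 CPM and the TLR adaptor gene Ticam1 at 14.3 and 6.70 CPM. Of 7 measured inhibitors 1 was lower, the RNA-editing enzyme gene Adar, and Socs1 was at 16.7 and 16.5 CPM. Of 9 measured genes associated with interferon-gamma, 3 were lower, Gbp5 (10.0 and 2.43 CPM), Irgm1 (33.1 and 12.8 CPM) and Igtp (21.6 and 8.61 CPM), and Nos2 was higher (55.7 and 207 CPM). Irf1, a factor common to both interferon types, differed between states, with log2 ratios of -0.40 (-0.49 to -0.31) over all cells, 0.72 (0.42 to 1.02) in Cd177-led, 1.26 (0.82 to 1.72) in Cd209a-led and -2.0 (-2.58 to -1.50) in Lpl-led cells, a difference that was not tested.

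Of 14 interferon genes searched, Ifnb1 alone had enough UMIs. It had 147 UMIs in the non-diabetic library (9.53 CPM) and 2 in the diabetic library (0.0657 CPM), a log2 ratio of -6.86 (-10.24 to -5.30). The non-diabetic UMIs came from 35 of 1123 cells (3.12%, 2.18% to 4.31%), and 9 cells with at least 5 UMIs held 103 of them. The diabetic UMIs came from 1 of 1755 cells (0.0570%, 0.00144% to 0.317%). By state, Ifnb1 was in 15 of 288 Inhba-led cells (78 UMIs), 9 of 97 Lpl-led (30 UMIs), 7 of 324 Chil3-led (25 UMIs) and 3 of 49 AY036118-led cells (13 UMIs), the last a shallow state with a median of 4238 UMIs. It was in 1 of 119 Cd209a-led cells and in 0 of 167 Cd177-led cells, which limits the share of cells with a UMI, not of cells expressing the gene, to 1.796% at 3 counts and to 2.18% by the Clopper-Pearson interval. The share of cells with a UMI was 2.16% (0.873% to 4.40%) in Chil3-led, 5.21% (2.94% to 8.44%) in Inhba-led and 9.28% (4.33% to 16.9%) in Lpl-led cells. These intervals overlap, those of Chil3-led and Lpl-led cells only slightly, and the order of these 3 states was not tested. Of the 78 Inhba-led UMIs, 6 cells held 63, so the UMI sums lean on few cells. How Ifnb1 relates to the level of the induced genes by state was not tested. Among non-diabetic cells of at least 5000 UMIs, 30 had an Ifnb1 UMI in their full counts, before thinning, and 17 of these responded. Their thinned sums of the 38 genes ran from 2 to 134 UMIs. The median was 23 UMIs against 11 in the 952 cells without an Ifnb1 UMI. Ifng had 0 UMIs in both libraries, which allows up to 0.194 and 0.0986 CPM.

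The genes outside the list whose level across cells was most like the summed list were sought among the 1594 genes that reached 100 CPM in either library. The first was Slfn5, a schlafen-family gene, with Pearson's r of 0.71 in the 1123 non-diabetic and 0.71 in the 1755 diabetic cells. The next were Ifi209 (0.72 and 0.59), Ifi211 (0.66 and 0.57), Ms4a4c (0.63 and 0.56), Ifi204 (0.63 and 0.56), Mndal, Rnf213, Ifi203, Slfn1 and Sp100. Ifi209, Ifi211, Ifi204, Mndal and Ifi203 belong to the PYHIN family of DNA-binding proteins. All 10 were among the interferon-induced genes kept out of the clustering. The cells share libraries and depth, so these values are descriptions. Each of the 10 was also lower in the diabetic library, Slfn5 at 234 and 81.2 CPM and Ifi203 at 291 and 60.5 CPM, the lowest ratio of the 10 at -2.27.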

How the data were processed

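The authors deposited raw UMI counts per gene and barcode, made with Cell Ranger version 3.0.2 per the file headers, on genome build mm10 per the submitters' processing notes. Groups came from the disease state in the labels. The matrices held 17559986 UMIs in 2026 non-diabetic and 31730014 UMIs in 2214 diabetic barcodes. The cell filter required 500 genes or more and a mitochondrial share under 10%. Scrublet, run per library, marked 2 and 4 cells, which is too few to show that it worked, so doublets were not removed and may remain.

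Counts were summed per library or state and divided by the total (CPM). Log2 ratios had 0.5 added to each sum, and a gene was measured with at least 20 UMIs. Intervals are exact Poisson for CPM, conditional binomial for ratios and Clopper-Pearson for shares. Cells were clustered jointly from 2000 variable genes, 30 components and 15 neighbours with leidenalg 0.10.2 at resolution 1 (scanpy 1.11.5, Python 3.11.15), without 190 interferon-related genes. A state was named from at least 3 markers and 50% of a cell type list at 2-fold or more in 10% of its cells, and stayed unnamed where another list, such as fibroblast for the Col1a1-led state, had more markers among its 10 leading genes. Cycling and handling lists named no state. The members, lists and states were chosen with earlier results of these data known. All members could be named, with pathway genes at 20 UMIs or more in a library and the 10 most similar genes. A gene of the pathway lists is not reported here. Positions are from GENCODE M21, promoters from RefSeq (GRCm38.p6), and copies from BLAST 2.17.0 at 95% identity over 200 bases. Alternative scalings used edgeR 4.0.16 and DESeq2 1.42.0 (R 4.3.3). The ratio calculation was tested on simulated data. Alternatives covered cell filters, doublets, states, scaling, depth, count filters, copies, the responding rule and clustering.

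Of the other marker lists the dendritic cell list was highest, at 420 and 176 CPM (non-diabetic and diabetic). Of its 8 measured genes, 6 were lower in the diabetic library. Migratory dendritic cell markers were at 90.9 and 16.4 CPM, B cell 59.4 and 47.0, endothelial 27.8 and 43.5, and cycling 43.6 and 70.3 CPM. The rest were lower: Langerhans cell 13.0 and 10.9, NK cell 0.0648 and 2.20, mast cell 5.12 and 4.04, keratinocyte 3.69 and 6.14, and red cell 0.389 and 1.12 CPM.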

Additional observations from a re-analysis of the deposited data

Results flagged for a closer look

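Ifit3 had ratios of opposite sign in 2 states, with counting intervals that leave out 0. Its diabetic over non-diabetic log2 ratio was 1.46 (24 and 37 UMIs) in the dendritic cell-like Cd209a-led state and -1.52 (63 and 15 UMIs) in the monocyte-like Cd177-led state. The difference was not tested, and 1 of the 74 diabetic Cd209a-led cells held 20 of the 37 UMIs.

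Barcodes that failed the cell filter entered only the alternative without a cell filter, and they carried the same genes. The 903 non-diabetic ones had 3539 CPM of the interferon-induced genes, close to the 3383 CPM of kept cells, and the 459 diabetic ones 761 CPM. Ifnb1 had 57 UMIs in 16 of those 903 non-diabetic barcodes and 0 in the 459 diabetic ones, which limits the share of barcodes with a UMI to 0.654% at 3 counts and to 0.800% by the Clopper-Pearson interval.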

How the results depend on the processing

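The number of genes at least 1.5 times lower stayed between 34 and 38 of those measured under the other cell filters, doublet removal, scalings (TMM, DESeq2 or centring: 38 of 38), depths, count filters and copies, and with any 1 state left out. It was 22 of 37, with 2 higher, in the 3 shared states alone, an alternative chosen after seeing the data. The median log2 ratio was -0.71 there and -1.18 without the Chil3-led, Inhba-led and Stfa3-led states (33 of 37 lower, also chosen after seeing the data). Without responding cells and cells under 5000 UMIs, 25 of 33 were lower, and the median was -1.002. Leaving out 1 state at a time gave -1.90 (without Ighm-led cells) to -1.47 (without Stfa3-led cells). The scalings moved the median of all genes from 0.12 to near 0.

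Responding shares depend on the rule. In the non-diabetic and diabetic library they were 62.1% and 23.7% at 5 genes or more, 22.7% and 3.85% at 12 or more, 16.9% and 2.25% when thinned to 2000 UMIs, 61.6% and 22.2% at 10000 UMIs, 66.9% and 36.0% without thinning, and 54.3% and 15.4% for at least 10 UMIs. Other thinning draws gave 37.6% to 41.3% and 8.73% to 10.2%. The median sum per cell was 7 and 2 without Ifi27l2a, and the diabetic median was 2.5 when thinned to 2000 UMIs and 2.87 without thinning, per 5000 UMIs.

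With interferon genes kept in the clustering, the median in the Cd177-led state was 0.11, with 2 of 29 genes lower and 3 higher, and the cause was not tested. It was -0.14 (8 of 31 lower) at resolution 1.5, -0.74 at resolution 0.5 and -0.47 under the stricter filter. The Lpl-led state had under 5 matched cells of a library under the stricter filter, which gave no value. After centring, 1 pathway gene was higher in place of 2 and 13 were lower in place of 10. Of 234 values for the 38 genes and Ifnb1, 41 moved outside their counting interval and 0 changed sign. No paired analysis was possible because each group is 1 library, and no replicate could be left out. The depth of 5000 UMIs limits detection of sparse genes such as Ifi44 and Ifit3b in single cells.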
